A study of Mus musculus with 8 samples.

Results

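The genes described here are the glycosyltransferases that build glycans on proteins and lipids of the secretory pathway, mostly in the Golgi apparatus. They were chosen by symbol, as the families that start, branch, extend and cap N-linked and O-linked glycans and those that make glycosaminoglycan chains, and dim probes were filtered out. The set was chosen with earlier results of these data known. Of 120 such genes in the RefSeq table, 112 had a probe that could be named on the array. Of these, 83 had a probe that stood well above background on 4 or more arrays out of 8 and were tested among 13570 named genes and 6023 unnamed transcripts, 19593 features in all. The label of a Golgi set holds for most members but not for all of them. The protein O-mannosyltransferases, O-fucosyltransferases and O-glucosyltransferases are enzymes of the endoplasmic reticulum, and the hyaluronan synthases are plasma membrane enzymes, although none of these synthases passed the filter.

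Kidney RNA was measured on 8 single-colour Agilent arrays from 4 NEKO and 4 control animals aged 8 weeks, each group with 2 females and 2 males. Every mouse carried Nrf2Flox/Flox on a mixed 129Sv/J and C57BL/6J background. NEKO mice were Keap1-/- with K5-Cre, a Cre recombinase active in squamous epithelium, so that Nrf2 was removed from tissues such as the oesophagus and was left in the kidney without its repressor Keap1. The controls were Keap1+/-, 3 of them with K5-Cre (K1Cre) and 1 female without it (K1). All females shared 1 slide and all males another, and sex and slide cannot be told apart. Nothing in the labels ties mice to litters, and n counts mice throughout.

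The labels were checked on Keap1, which encodes the repressor. Its level, given as log2 processed signal with the 75th percentile of its array subtracted, was 1.84 ± 0.07 (SD, n = 4) in controls and 0.205 ± 0.170 (SD, n = 4) in NEKO mice, a fall that limma placed at an adjusted p of 0.0046. Nqo1, the prototypical Nrf2 target, was 2.62 higher on the log2 scale at an adjusted p of 0.065 from limma, and its lowest NEKO value exceeded its highest control value. Between 61.7% and 65.7% of the probes were well above background on each array, and no probe was saturated. In control replicate 4, the summed signal of 4 podocyte markers was 117 against 4.88 to 24.1 in the other 7 mice, led by Synpo. For the 22 members named by the rule given with the processing, quoted changes that moved by over 1.5 times without this mouse are given without it too. Changes of all other genes, such as Fut10, are given only with this mouse included, and some small ones may depend on it. The defining proximal tubule markers were present in all kidneys, with a summed signal of 463 to 617 in controls and 522 to 644 in NEKO mice. The tissue is whole kidney, so fewer cells of a type and less RNA per cell cannot be told apart.

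Glycans are assembled stepwise, and each step is made by an enzyme family with its own donor sugar. N-glycans arrive in the Golgi as trimmed precursors, and the Mgat enzymes add the N-acetylglucosamine (GlcNAc) branches. Mucin-type O-glycans start when a Galnt enzyme adds N-acetylgalactosamine to serine or threonine. C1galt1 and Gcnt enzymes such as Gcnt1 then build their cores. Galactosyltransferases and GlcNAc transferases lengthen the branches, and sialyltransferases and fucosyltransferases cap them. A separate linker, made by xylosyltransferase, B4galt7, B3galt6 and B3gat3, carries heparan sulfate and chondroitin sulfate. In the kidney these products cover the tubular brush border, the collecting duct channels and receptors, and the glomerular basement membrane. The study turned to glycosylation because of the glycosylated form of AQP2, the water channel of collecting duct principal cells, and the question asked of the array here is whether the transcripts of these enzymes differ between NEKO and control kidneys.

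Because Nrf2 acts by binding an antioxidant response element, the 250 bases before each annotated start were read from the RefSeq promoter table (GRCm38.p6) and searched on both strands for the letters TGACNNNGC, the core of that element. These letters stood in 11.5% of 27025 genes with a promoter in the table. They stood in 6 of the 59 members with an entry, or 10.2%, namely B3galt5, Poglut1, Gcnt2, Galnt6, Pofut2 and B3gat3. None of the 5 members whose NEKO values all lay above the control values had them. The windows below are shown for the member with the smallest p between genotypes (Csgalnact2, 1 of 2 windows listed), the member with the smallest p for a difference between the sexes in that change (St8sia4), and the member among the 12 smallest genotype p that held the letters (B3galt5, the most upstream of 3 windows), each written 5′ to 3′ on the strand of the gene with the motif in capitals.
Csgalnact2, chr6:118139141-118139390, minus strand: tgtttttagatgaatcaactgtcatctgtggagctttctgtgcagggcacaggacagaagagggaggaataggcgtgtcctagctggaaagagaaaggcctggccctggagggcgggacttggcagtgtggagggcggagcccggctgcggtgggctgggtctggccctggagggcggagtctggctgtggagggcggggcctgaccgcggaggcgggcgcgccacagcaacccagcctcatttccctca
St8sia4, chr1:95667595-95667844, minus strand: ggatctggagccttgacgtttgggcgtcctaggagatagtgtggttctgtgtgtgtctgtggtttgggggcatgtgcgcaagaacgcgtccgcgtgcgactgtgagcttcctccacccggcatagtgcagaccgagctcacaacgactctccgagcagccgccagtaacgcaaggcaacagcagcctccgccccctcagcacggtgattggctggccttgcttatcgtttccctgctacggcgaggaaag
B3galt5, chr16:96235551-96235800, plus strand: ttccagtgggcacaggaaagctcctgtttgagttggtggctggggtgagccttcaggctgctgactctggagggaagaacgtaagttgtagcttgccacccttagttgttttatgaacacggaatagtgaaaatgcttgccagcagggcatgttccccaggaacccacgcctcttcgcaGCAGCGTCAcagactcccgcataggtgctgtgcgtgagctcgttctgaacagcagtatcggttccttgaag
In B3galt5 the match was GCAGCGTCA, the motif read on the opposite strand, and its first base lay 71 bases before the start. The other two windows hold no match in capitals. A match is a description of letters, and binding was not measured.

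Across the 83 members, none passed an adjusted p of 0.05 in limma between NEKO and control kidneys in either direction, where 0.225% of all features did (44 of 19593). The lowest adjusted p of a member was 0.118. At an unadjusted p of 0.05, 12 members were higher and 1 was lower. Over all features 7.37% were higher and 10.6% were lower at that threshold, so the members had more on the higher side, 14.5%, and fewer on the lower side, 1.2%. The median log2 change was 0.06 over the members and -0.03 over all features. A positive change was seen in 47 of the 83 members, or 56.6%, beside 43.8% of all features. That share of all features also stands beside the counts of positive and negative changes by class given below. The median of the members was lower, from 0.015 to 0.033, under array weights, the mean of kept probes, normexp and leaving out NEKO replicate 3 or control replicate 1. These shares describe the genes that passed the filter, and no test was made over them. The median size of a member's change was 0.16 on the log2 scale, with a median standard error of 0.12, and the median size over all features was 0.15. Only 3 members had fitted changes over 2-fold, St8sia4, Galnt16 and Extl1.

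**Figure D1:**
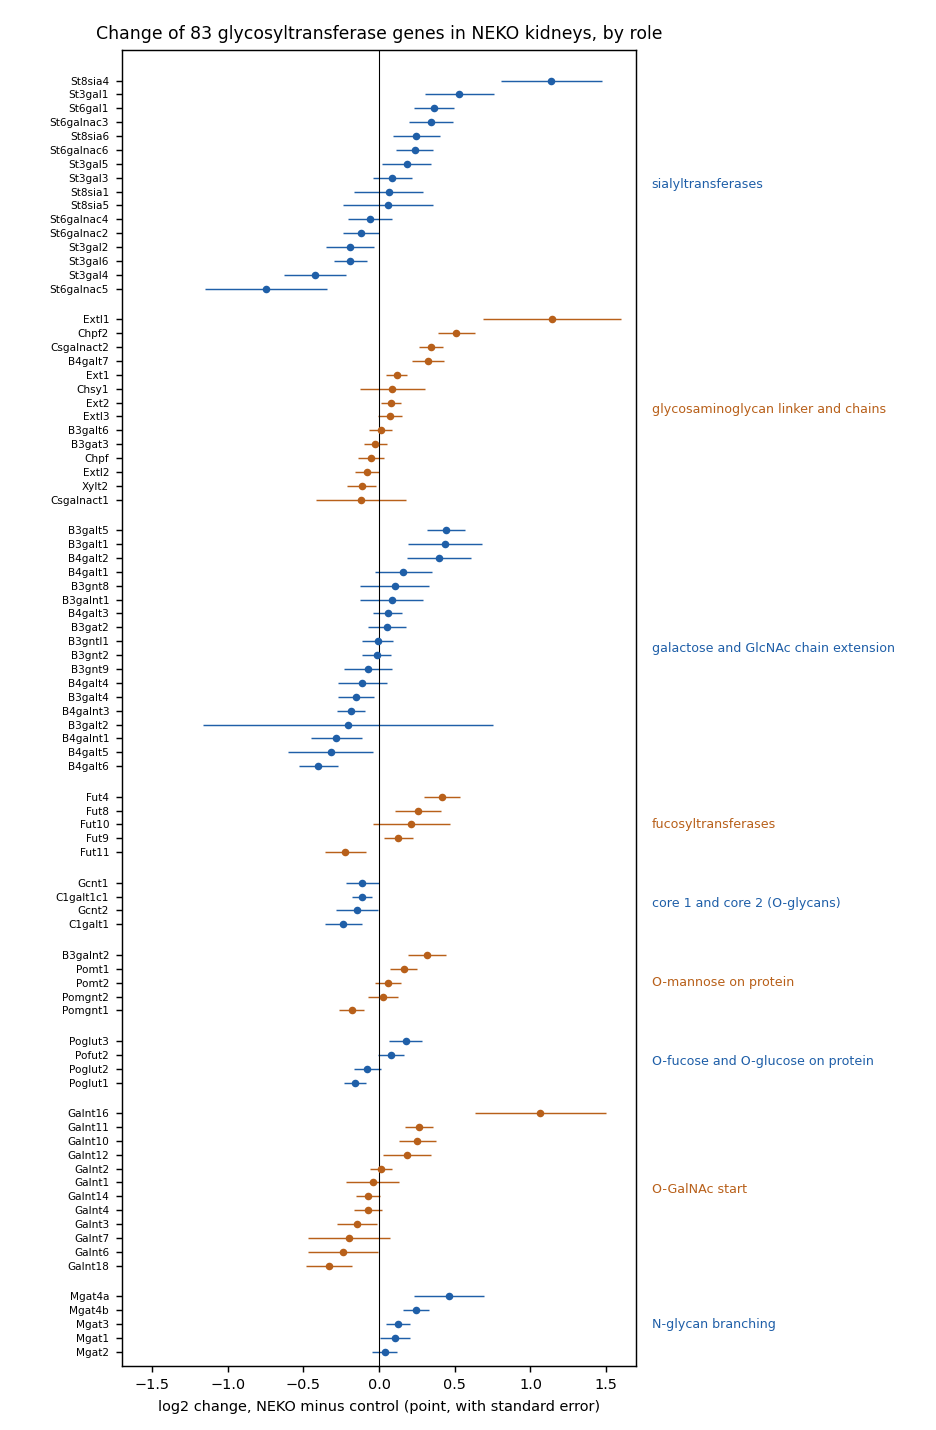
The log2 change between 4 NEKO and 4 control kidneys is plotted on the horizontal axis for each of the 83 members, grouped by role, with the point at the fitted change and the bar at its standard error. Most members lie within 0.5 of 0, and St8sia4, Galnt16 and Extl1 lie beyond 1 with wide bars.

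The groups did not overlap in 5 members, all with NEKO higher. Over all features, 3.88% were separated with NEKO higher and 5.39% with NEKO lower, and the 5 members are 6.02% of the 83. They were Csgalnact2, B4galt7, Galnt11, St8sia4 and Galnt16. For such a split of 4 against 4 mice the exact two-sided permutation test gives p = 0.0286, the smallest it can give.

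Among the genes of glycosaminoglycan synthesis, 9 of 14 tested members had a positive change and 5 a negative one, with a median of 0.07 on the log2 scale. At an unadjusted p of 0.05, 4 were higher and none was lower, beside 7.37% and 10.6% of all features. Csgalnact2 adds the first N-acetylgalactosamine of chondroitin sulfate. Its levels were 1.28 and 1.26 in NEKO females, 1.44 and 1.44 in NEKO males, 1.01 and 1.08 in control females and 0.92 and 1.04 in control males. All NEKO values were higher than all control values in both sexes, and the spread within groups was small. The log2 change was 0.34 (standard error 0.08), and the adjusted p from limma was 0.118.

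Chpf2 is a chondroitin polymerising factor. Its levels were 0.76 and 0.49 in NEKO females, 1.40 and 1.06 in NEKO males, 0.27 and 0.31 in control females and 0.59 and 0.49 in control males. The NEKO mouse at 0.49 reached the control range. NEKO kidneys were 0.51 higher in log2 units, with a standard error of 0.12 and an adjusted p of 0.126 (limma). A second kept probe of Chpf2, dimmer than the first, gave a change of 0.29.

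B4galt7 adds the first galactose of the linker that joins glycosaminoglycan chains to proteins. Its levels were -2.47 and -2.03 in NEKO females, -2.40 and -2.44 in NEKO males, -2.60 and -2.66 in control females and -2.64 and -2.74 in control males. The groups did not overlap, and NEKO replicate 3 lay far above the other 3 NEKO mice. The difference of 0.33 in log2 units had a standard error of 0.11 and an adjusted p of 0.198 (limma). The other linker enzymes changed little, B3galt6 by 0.01, B3gat3 by -0.02 and the xylosyltransferase Xylt2 by -0.11 on the log2 scale, and Xylt1 had no probe that could be named.

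Extl1 belongs to the family of heparan sulfate polymerases. Its levels were -4.01 and -3.32 in NEKO females, -2.94 and -4.04 in NEKO males, -3.90 and -5.70 in control females and -4.18 and -5.10 in control males. The highest control value lay above 2 NEKO values, and the probe was well above background on 2 control arrays and 4 NEKO arrays. The log2 change was 1.14 (standard error 0.46), the adjusted p from limma was 0.257, and the change fell to 0.53 with normexp background correction. The polymerases Ext1 and Ext2, which together make the heparan sulfate backbone, had log2 changes of 0.12 and 0.08.

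Among the 16 sialyltransferases tested, 10 had a positive change and 6 a negative one, with a median of 0.08 on the log2 scale, and 2 were higher at an unadjusted p of 0.05, a threshold that 7.37% of all features passed on that side. St8sia4 makes polysialic acid, a long polymer of sialic acid carried by few glycoproteins. Its levels were -1.44 and -1.19 in NEKO females, 0.26 and 0.01 in NEKO males, -1.72 and -1.53 in control females and -1.99 and -1.66 in control males. The genotypes did not overlap, and the NEKO males stood well above the other 6 mice. The log2 change over both sexes was 1.14 (standard error 0.33), a fold of 2.20, at an adjusted p of 0.171 from limma. When the genotype effect was averaged over the sexes in a model that let sex and genotype interact, the same change had an adjusted p of 0.0117, and St8sia4 was the only member called there, where 2.63% of all features were called. Across the alternatives tried the log2 change lay between 0.91 and 1.35, and the adjusted p between 0.0117 and 0.474.

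St6gal1 adds the α2,6-linked sialic acid that caps N-glycans. Its levels were -0.58 and -0.33 in NEKO females, -0.60 and -0.46 in NEKO males, -0.46 and -0.74 in control females and -1.23 and -0.99 in control males. The females of the 2 genotypes overlapped. NEKO mice averaged 0.36 higher (standard error 0.13, adjusted p = 0.228 from limma). The largest negative change of any member was that of St6galnac5, named after its values were seen, at -0.75 on the log2 scale. A single NEKO female lay at -2.11 and the other 7 mice between -0.74 and 0.07. The change was -1.13 in females and -0.36 in males, and a dimmer second probe gave 0.34 over both sexes.

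Among the 12 enzymes that start mucin-type O-glycans, 5 had a positive change and 7 a negative one, with a median of -0.06 on the log2 scale. Galnt11, which is abundant in kidney, had levels of 6.18 and 6.41 in NEKO females, 6.22 and 6.16 in NEKO males, 5.92 and 6.02 in control females and 6.10 and 5.87 in control males. The groups did not overlap, with a gap between 6.10 and 6.16. A log2 change of 0.26 (standard error 0.09) resulted, at an adjusted p of 0.210 in limma. Galnt16 had levels of -3.28 and -3.39 in NEKO females, -2.12 and -2.29 in NEKO males, -3.50 and -3.41 in control females and -4.83 and -3.60 in control males. The groups were separated by a narrow margin among the females and a wide one among the males. The log2 change was 1.06 (standard error 0.43), at an adjusted p of 0.264 from limma, and it was 0.63 without control replicate 4 and 0.63 with normexp correction. The remaining members of this class lay between -0.33 (Galnt18) and 0.25 (Galnt10, 0.17 without control replicate 4).

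All 4 members classed under cores 1 and 2 of these glycans had negative changes, with a median of -0.13 on the log2 scale. None passed an unadjusted p of 0.05. Within this class C1galt1 and Gcnt1 build the cores themselves. C1galt1, the core 1 galactosyltransferase, had levels of -2.57 and -2.59 in NEKO females, -2.51 and -2.35 in NEKO males, -2.71 and -2.33 in control females and -1.92 and -2.13 in control males. The males of the 2 genotypes did not overlap and the females did. Its log2 change was -0.24 (standard error 0.12), at an adjusted p of 0.355 from limma, and -0.13 with normexp correction. Its chaperone C1galt1c1 had a change of -0.11, and Gcnt1 and Gcnt2, which add the GlcNAc of core 2 and of branched chains, had changes of -0.11 and -0.15.

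By the probe used for each, all 5 N-glycan branching members had positive changes, with a median of 0.13 on the log2 scale and a range from 0.04 to 0.46. Mgat4b and Mgat4a add the same branch of complex N-glycans. For Mgat4b the levels were 4.65 and 4.78 in NEKO females, 5.07 and 5.07 in NEKO males, 4.49 and 4.60 in control females and 4.64 and 4.87 in control males. NEKO values were higher within each sex, and the ranges over both sexes overlapped. The fitted log2 change was 0.24 (standard error 0.08, adjusted p = 0.211 from limma), and a second probe gave 0.25. The change of Mgat4a was 0.46 (standard error 0.23), at an adjusted p of 0.342, and it was 0.27 without control replicate 4, 0.29 without NEKO replicate 6 and 0.23 with normexp correction. For Mgat3, which adds the bisecting GlcNAc, the probe used gave 0.13 and a dimmer second probe gave -0.21. Mgat1, which starts the first branch, changed by 0.11, and Mgat2, which starts the next one, by 0.04. No array had Mgat5 well above background.

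Among the 18 members classed as extending chains, mostly with galactose or GlcNAc, 8 had a positive change and 10 a negative one. The median was -0.01 on the log2 scale. The class also holds B4galnt1, B4galnt3 and B3galnt1, which add N-acetylgalactosamine, and B3gat2, which adds glucuronic acid. B3galt5, a β1,3-galactosyltransferase that makes type 1 chains, had levels of 2.59 and 2.58 in NEKO females, 3.06 and 3.15 in NEKO males, 1.79 and 2.32 in control females and 2.82 and 2.70 in control males. NEKO mice were higher within each sex. The fitted log2 difference of 0.44 had a standard error of 0.12 and an adjusted p of 0.163 (limma). B4galt6, a lactosylceramide synthase, was the single member that was lower at an unadjusted p of 0.05. Its levels were -1.61 and -1.38 in NEKO females, -2.50 and -2.48 in NEKO males, -1.26 and -1.45 in control females and -1.84 and -1.81 in control males. Its log2 change between genotypes, -0.40, had a standard error of 0.13 and an adjusted p of 0.195 (limma), and it was -0.26 with normexp correction.

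Of the 5 fucosyltransferases, 4 had positive changes. Fut4, which makes the Lewis x structure, had levels of -3.35 and -3.46 in NEKO females, -3.96 and -3.58 in NEKO males, -3.83 and -3.60 in control females and -4.18 and -4.38 in control males. NEKO mice were higher within each sex, with a log2 change of 0.41 (standard error 0.12) and an adjusted p of 0.168 from limma. With normexp correction the change of Fut4 was 0.22. Fut8, the core fucosyltransferase of N-glycans, changed by 0.26, Fut10 by 0.21 and Fut11 by -0.22. Among the O-mannose enzymes, which act on dystroglycan, B3galnt2 had the largest change, 0.32 (standard error 0.13), at an adjusted p of 0.252, and 0.21 without control replicate 7. In the class that adds O-fucose and O-glucose to epidermal growth factor-like and thrombospondin repeats, the changes lay between -0.16 and 0.18, with Poglut3 at the upper end, at an adjusted p of 0.426. Poglut3 was at 0.096 without control replicate 4 and 0.097 with normexp correction.

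**Figure D2:**
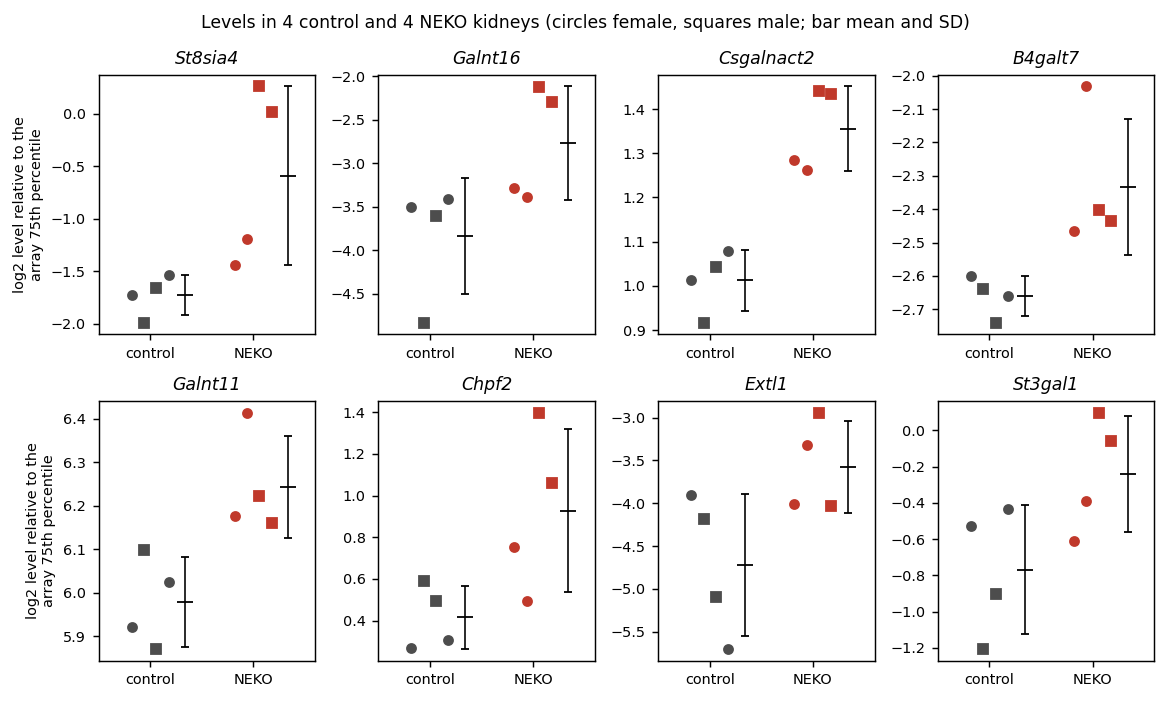
Levels of 8 members are plotted on the vertical axis as log2 signal over the array's 75th percentile, for control (grey) and NEKO (red) mice, with circles for females, squares for males and a bar for the mean and SD of 4 mice. Csgalnact2, B4galt7, Galnt11, St8sia4 and Galnt16 show no overlap between genotypes, and in St8sia4 and Galnt16 the 2 NEKO males are the highest points.

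The change between genotypes was larger in size in males than in females for 59 of the 83 members, or 71.1%, whereas the share over all features was 59.3%. The median size of the log2 change was 0.12 in females and 0.25 in males over the members, and 0.15 and 0.20 over all features. When the difference between the sexes in the genotype effect was tested as an interaction, no member passed an adjusted p of 0.05, where 0.0153% of all features did. At an unadjusted p of 0.05, 7 members had a higher change in males and 4 a lower one. Over all features these shares were 6.87% and 3.65%, near the 8.43% and 4.82% of the members.

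St8sia4 had the smallest p. Its log2 change was 0.31 in females and 1.96 in males, and the difference of 1.65 (standard error 0.24) had an adjusted p of 0.101 from limma. For Galnt16 the changes were 0.12 and 2.01, a difference of 1.89 at an adjusted p of 0.255, which was 1.28 without control replicate 4 and 1.00 with normexp correction. St3gal1, which sialylates core 1 O-glycans, had levels of -0.61 and -0.39 in NEKO females, 0.10 and -0.06 in NEKO males, -0.53 and -0.44 in control females and -1.21 and -0.90 in control males. The female genotypes overlapped, and the NEKO males stood above all other mice while the control males stood below them. The changes were -0.02 in females and 1.07 in males, and the difference of 1.09 had an adjusted p of 0.140. St3gal5, the synthase of the ganglioside GM3, and Galnt10 had differences of 0.69 and 0.51, with adjusted p of 0.316 and 0.322. The largest fitted difference of all was that of B3galt2, named after its values were seen, at -2.88. Its probe was dim, and its level ranged from -6.51 to -3.12 in controls and from -6.25 to -2.91 in NEKO mice.

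**Figure D3:**
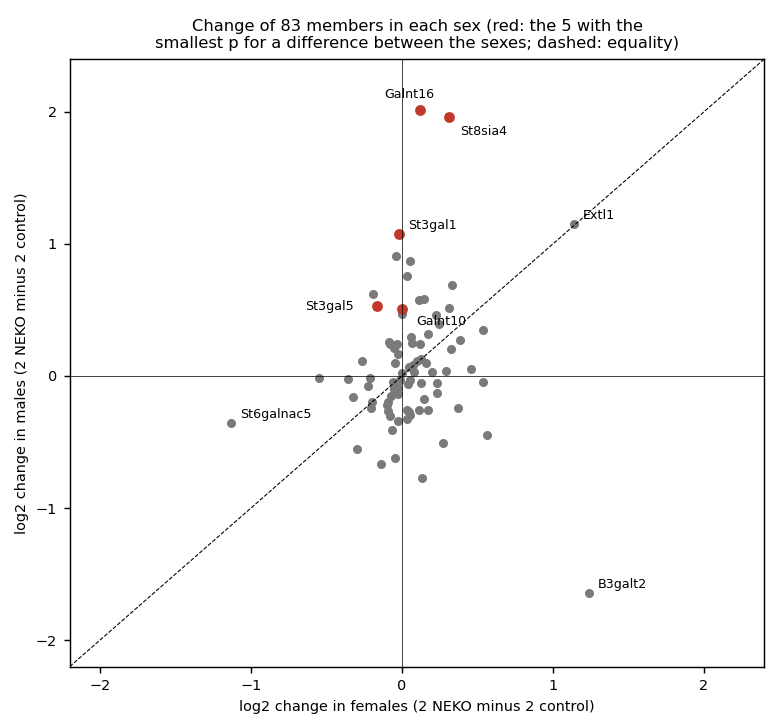
The log2 change between NEKO and control mice in females is plotted on the horizontal axis and that in males on the vertical axis, with 1 point for each of the 83 members and a dashed line of equal change. Galnt16, St8sia4 and St3gal1 lie above the line, between -0.02 and 0.31 in females and between 1.07 and 2.01 in males, and Extl1 lies on the line.

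Several marker lists moved with the NEKO males, in which St8sia4, Galnt16 and St3gal1 were highest. The summed signal of the neutrophil markers, over the array's 75th percentile, was 0.224 to 0.529 in controls, 0.353 to 0.547 in NEKO females and 6.67 and 1.61 in NEKO males. For this list 3 of 5 genes were tested, and 2 of them were higher at an unadjusted p of 0.05. These were S100a9, by far the brightest gene of the sum, and S100a8, which was well above background on 1 control and 3 NEKO arrays. The log2 change of Mpo, the remaining gene, was 0.05. The lymphocyte markers summed to 0.93 to 1.43 in controls, 0.835 to 0.959 in NEKO females and 1.39 to 1.66 in NEKO males, with 6 of 8 genes tested. The lower of the NEKO males thus lay within the control range, and Ptprc was the brightest gene of the sum. In males Cd8a alone of these genes was lower, at -0.58 on the log2 scale. Every NEKO mouse lay below every control for Cd8a. The macrophage markers summed to 6.11 to 8.51 in controls and 5.12 to 9.58 in NEKO mice. Their genes differed in direction in males. Adgre1, C1qa, C1qb, C1qc and Itgam had log2 changes between 0.32 and 1.30 there, Cd14 had -0.02 and Csf1r had -0.67. The fibroblast and smooth muscle markers summed to 16.5 to 31.4 in controls, 24.5 to 25.3 in NEKO females and 35.3 to 57.9 in NEKO males. The urothelial markers summed to 1.13 to 2.83 in controls, 2.31 to 2.81 in NEKO females and 5.64 to 5.78 in NEKO males. Of these, Krt5, Upk1b, Upk2 and Upk3a had positive changes. Upk1a went the other way, with a log2 change of -0.71 and every NEKO mouse below every control. In the other direction, the thick ascending limb markers were 365 to 432 in controls, 371 to 381 in NEKO females and 214 to 251 in NEKO males. The sum of the intercalated cell markers was below all controls in both sexes, at 35.6 to 47.9 in controls, 22.3 to 23.3 in NEKO females and 6.24 to 12.8 in NEKO males. Slc26a4, the brightest of them, and Atp6v1g3 were lower without overlap. The genotypes overlapped for Atp6v0d2, Slc4a1 and Foxi1, whose log2 changes were -0.90, -0.91 and -0.09. The sums of the principal cell markers overlapped, at 39.5 to 48.9 in controls and 33.0 to 44.8 in NEKO mice, and Aqp3 and Aqp2 were the brightest genes. Hsd11b2, a dimmer gene of this list, had a log2 change of -0.92 at an adjusted p of 0.150 from limma. Its change was -0.38 in females and -1.46 in males. Aqp2, Aqp3, Scnn1g and Avpr2 had changes between -0.22 and 0.26. The part of these cell types in the values of St8sia4, Galnt16, St3gal1 and the other members was not tested.

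**Figure D4:**
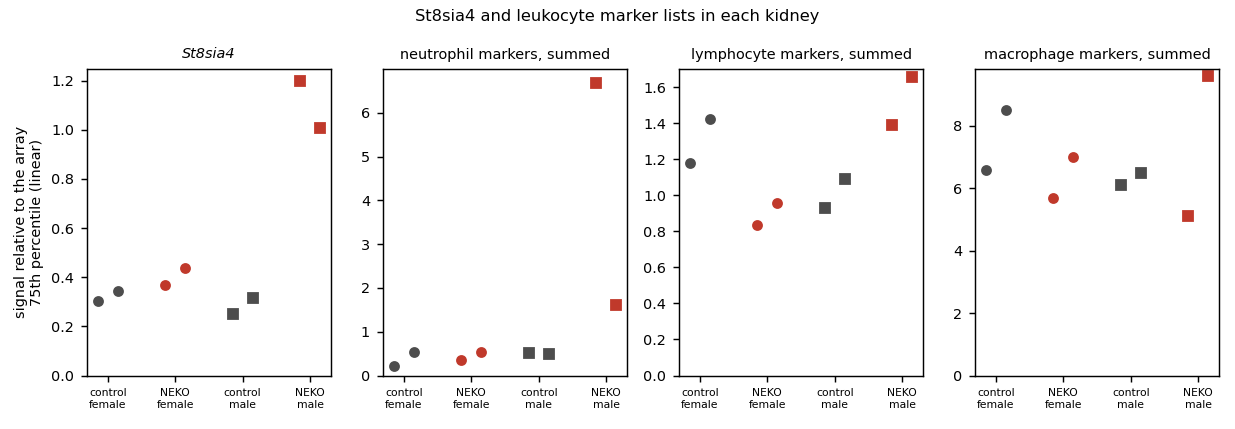
The signal of St8sia4 and the summed signals of the neutrophil, lymphocyte and macrophage marker lists are plotted per mouse on linear axes over the array's 75th percentile, by genotype and sex. The 2 NEKO males are the highest for St8sia4 and for the neutrophil markers, while their macrophage sums lie at the lowest and the highest point of the 8 mice.

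Between males and females, which also means between the slides, no member passed an adjusted p of 0.05, where 0.786% of all features did. At an unadjusted p of 0.05, 16 members were higher in males and 8 were lower. Over all features 10.4% were higher and 10.8% lower, and among the members 19.3% and 9.64%. In 10 of the 83 members all males lay above all females, beside 6.75% of all features, and in 6 all males lay below, beside 5.27%. The 10 that were higher in males were B3galt5, Mgat3, Fut9, Galnt3, Galnt6, Gcnt1, Galnt14, Csgalnact1, St8sia1 and Galnt1. The 6 that were lower were B4galt6, St3gal2, Galnt12, Poglut2, Galnt4 and B3galnt1.

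The member with the smallest p for sex was B4galt6, whose values are given above, at -0.73 in males (standard error 0.13) at an adjusted p of 0.057 from limma. Csgalnact1, the partner of Csgalnact2 in starting chondroitin chains, had levels of -1.43 and -1.16 in NEKO females, 0.00 and -0.40 in NEKO males, -1.77 and -1.36 in control females and 0.88 and -0.27 in control males. Every male lay above every female, and control replicate 4 was the highest. Males exceeded females by 1.48 log2 units, with a standard error of 0.29 and an adjusted p of 0.070 (limma). Its genotype change was -0.12 and turned to 0.19 without control replicate 4, while the difference between the sexes was 1.17 without that mouse.

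B3galt5 was 0.61 higher in males at an adjusted p of 0.071, Fut9, a Lewis x fucosyltransferase of kidney, 0.44 higher with 0.080, and Galnt6 1.02 higher with 0.085, all from limma. The difference of Galnt6 was 0.41 with normexp correction. Its probe was dim and was well above background on 3 control and 2 NEKO arrays.

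**Figure D5:**
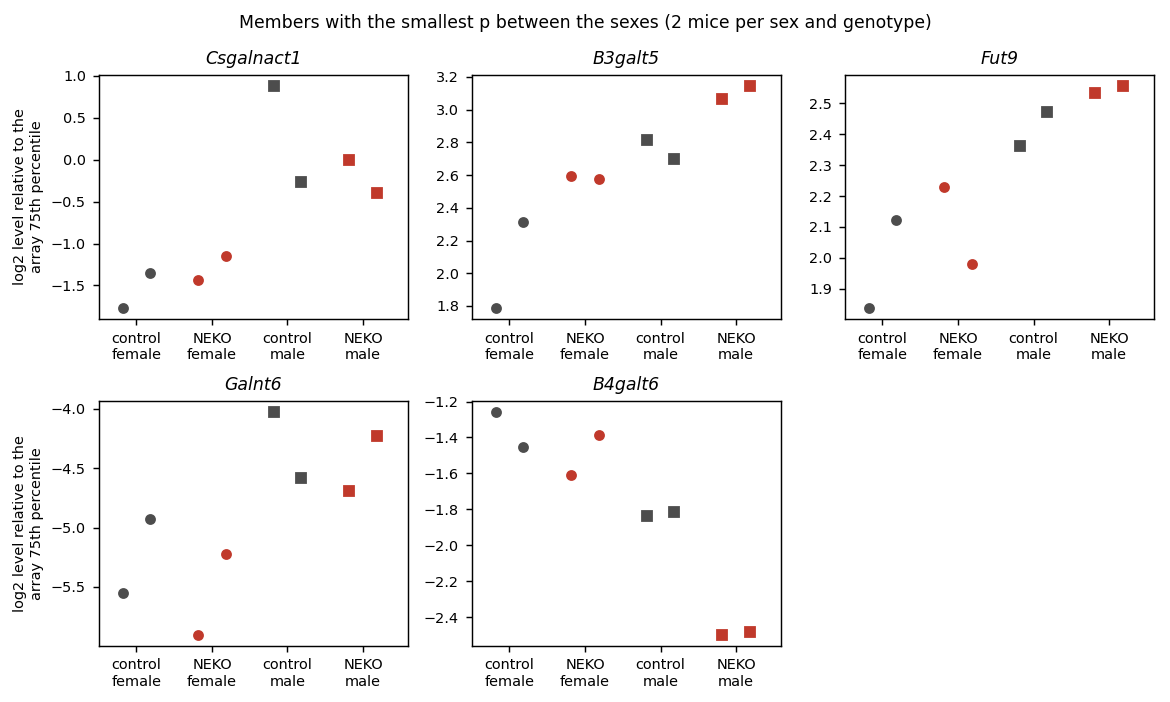
Levels of the 5 members with the smallest p between the sexes are plotted for each mouse by genotype and sex, as log2 signal over the array's 75th percentile. In Csgalnact1, B3galt5, Fut9 and Galnt6 all 4 males lie above all 4 females, and in B4galt6 they lie below, with the NEKO males lowest.

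Genes that act beside the members were read as 4 lists, and none held a gene at an adjusted p of 0.05 or less. Of 17 glycosyltransferases outside the naming rule, such as the fringe enzymes and Ugcg, none passed an unadjusted p of 0.05, and the median log2 change was 0.05. Among 28 genes of N-glycan assembly and trimming, 4 were higher and 2 were lower at that threshold, beside 7.37% and 10.6% of all features. The higher ones were Alg2, Ddost, Man1c1 and Man2a1, and the lower ones Alg3 and Alg6. Man1c1, a Golgi mannosidase that trims N-glycans before branching, had the largest of these changes, 0.75 (standard error 0.17), at an adjusted p of 0.116 from limma. Among 21 genes that modify heparan and chondroitin sulfate, 2 were higher and 2 were lower at that threshold, beside 7.37% and 10.6% of all features. The sulfotransferases Chst12 and Chst15 were higher by 0.74 and 0.49, and Hs3st3a1 and Hs3st3b1 were lower at -0.67 and -0.52. Their adjusted p from limma lay between 0.163 and 0.248. Chst11 had the largest change of this list, a negative one with a standard error of 0.61, and did not pass the unadjusted threshold.

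The donor sugars were covered by 33 genes, of which 2 were higher and 4 were lower at an unadjusted p of 0.05 from limma. Over all features 7.37% were higher and 10.6% lower at that threshold. Ugdh, which makes the UDP-glucuronic acid used for heparan and chondroitin sulfate and is a known Nrf2 target, was 1.34 higher (standard error 0.22), at an adjusted p of 0.067 from limma. Its mean level was 3.55 in controls and 4.89 in NEKO mice. Cmas, which activates sialic acid for the sialyltransferases, was 0.32 higher at an adjusted p of 0.128. Nans, an enzyme of an earlier step of sialic acid synthesis, was lower at -0.36 at an adjusted p of 0.155. Galk1, Gmppb and Uap1l1 were the other 3 on the lower side.

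Altogether 29 genes had a named probe but none well above background on at least 4 arrays. These were B3gat1, B3gnt3, B3gnt4, B3gnt5, B3gnt7, B4galnt2, B4galnt4, Chsy3, Fut1, Fut2, Fut7, Galnt13, Galnt17, Galnt9, Galntl5, Galntl6, Gcnt3, Has1, Has2, Has3, Mgat4c, Mgat4d, Mgat4e, Mgat4f, Mgat5, Mgat5b, St6galnac1, St8sia2 and St8sia3. Within the polysialyltransferase pair, St8sia2 was thus not measured above background and St8sia4 was. B3gnt7, B4galnt4, Galnt17 and Has2 reached 3 arrays, with detection in both genotypes for each. The other 8 genes of the rule, B3gnt6, Galnt15, Galnt5, Gcnt4, Gcnt7, Pofut1, St6gal2 and Xylt1, had no probe that could be named.

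Some members were read by several probes, and their probes did not always move together. This was the case for 31 members with more than 1 kept probe, of which 14 had probes with changes of opposite sign. Fut9 had 5 probes, whose log2 changes lay between -0.12 and 0.26. For these genes the value reported is that of the probe with the highest mean level.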

How the data were processed

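The authors extracted total kidney RNA, labelled it with Cy3 and hybridised it to 1-colour Agilent arrays, and deposited Feature Extraction 10.7.3.1 output with intensity values per spot, in which the processed signal is background-subtracted. Their deposited matrix holds log2 values, whose differences between arrays matched the recomputed ones within 0.01 at 100% of 41079 shared probes. The deposited columns showed the matrix to be centred on each probe's median, and the paper names no normalization for the arrays.

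Outlier spots (73 to 172 of 43379 per array) were left out, spots of 1 probe averaged, and the level taken as log2 of the processed signal less its array's 75th percentile. A probe was kept if well above background on 4 or more arrays, with values on 6 or more. Probes were named by matching accessions to RefSeq (GRCm38.p6), which named 26690 of 41174, and where several probes of a gene were kept, the brightest on average was used. The array annotation is on another build, so coordinates come only from the RefSeq promoter table.

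Genotype was fitted with sex as a covariate in limma 3.58.1 under R 4.3.3 (lmFit, eBayes), with Benjamini-Hochberg adjustment over all 19593 features. The interaction of sex and genotype was a second model. Lists were described by counts and medians. The procedure was tested on simulated data. Precision is limited by the number of arrays.

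The members and lists were chosen with earlier results of these data known. Named are the 12 members with the smallest p for genotype, the largest change in each role, the 5 smallest p for the interaction and for sex, members whose groups do not overlap, members with no kept probe, and Keap1 and Nqo1. St6galnac5, B3galt2 and the remaining members named were added after their values were seen.

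Alternatives were array weights, the deposited matrix, eBayes with trend and robust, averaging over the sexes, the mean of kept probes, no filter, a stricter filter, no sex term, normexp (on median signals), quantile normalization, the methods' t-test and leaving out each mouse.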

Additional observations from a re-analysis of the deposited data

Results flagged for a closer look

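In 44 groups of 4 mice, the NEKO and control values of the 22 named members, 2 single mice lay far from their group by Dixon's test, and chance alone flags about 1 group in 20. For B4galt7, NEKO replicate 3, a female, had a level of -2.03 against -2.47 to -2.40 in the other 3 NEKO mice, a gap of 0.854 of the range of the group. For Galnt16, control replicate 4, a male, had a level of -4.83 against -3.60 to -3.41 in the other 3 controls, a gap of 0.861 of the range. Without that mouse the log2 change of Galnt16 between NEKO and control kidneys was 0.63 in place of 1.06.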

How the results depend on the processing

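Of the 22 named members, Csgalnact1 alone turned direction between genotypes, from -0.12 to 0.018 with array weights and 0.04 without NEKO replicate 6, and it lay between -0.28 and 0.19 when each mouse was left out, the highest without control replicate 4. The others kept their direction in every alternative that gave a value. The count of members called higher in NEKO mice rose from 0 to 1 (St8sia4) when averaged over the sexes and to 4 (B4galt7, Csgalnact2, Ext1 and Galnt11) by the methods' t-test without adjustment, which is 4.82% of the members beside 4.81% of all features, and it was 0 after adjustment. The count of members higher in males rose from 0 to 3 (B3galt5, Csgalnact1 and Fut9) with trend and robust, 3.61% of the members beside 1.41% of all features, to 1 (Galnt6) with normexp, and lay between 0 and 1 when each mouse was left out, the 1 being St8sia1 without NEKO replicate 6. The count lower in males rose from 0 to 1 (B4galt6) with array weights, with trend and robust, and with probes well above background on all 8 arrays. The count for the interaction stayed at 0 in each alternative that gave it. The cause was not tested. Slide as a block was not run because slide equals sex. No paired analysis was possible because the replicate numbers run over both groups and none is shared. Extl1, Galnt16, Galnt6, B3galt2, B4galt5 and St8sia5 were not well above background on every array.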
